A study of Mus musculus with 12 samples.

Results

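The COMM domain family comprises the genes Commd1 to Commd10, 10 listed members, whose proteins share a conserved carboxy-terminal COMM domain. Members were found as rows of the deposited table whose gene name equals a member's symbol. By this rule 8 of the 10 had a row of their own, of 39248 rows in all. Commd1 and Commd5 appeared only in rows that name a second gene. The family was chosen on measured values of the comparison described here, the expression of its members in knockdown against control libraries, so the members' differences between the arms are described without a test.

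The libraries were 12 RNA-seq libraries of 3T3-L1 adipocytes, fat-storing cells differentiated in culture from a mouse fibroblast-like line. Control libraries (n = 6) came from cells electroporated with a control siRNA. Knockdown libraries (n = 6) came from cells electroporated with an siRNA against Zfp407, a zinc finger gene, 3 libraries with siRNA #1 and 3 with siRNA #2. Both arms received 0.75 nmol of siRNA after differentiation, and no group was left without electroporation. The table marks the knockdown columns by numbers that do not tell the siRNA, so the 6 were taken as 1 arm. The question the design puts is how the adipocyte transcriptome differs when Zfp407 is knocked down, in a study named for insulin-stimulated glucose uptake and Glut4 mRNA. All libraries are of 1 cell line, and p-values measure the spread between these libraries.

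Values were FPKM, fragment counts scaled by transcript length and by the mapped fragments of a library, as the authors deposited them. Because FPKM is a per-length scale, levels of different genes can be set side by side. Absolute depth is unknown. Relative depth, read from the smallest steps in low values, ran from 0.88 to 1.15 with control library 1 as the unit. The mean FPKM of Zfp407 itself was 2.83 ± 0.178 with the control siRNA and 1.79 ± 0.208 with its own siRNAs (SD, n = 6 each), 36.9% lower, with no overlap of the arms. On log2(FPKM + 1) the difference was -0.46 (SE 0.06, limma adjusted p = 8.0e-05). An exact two-sided permutation test over the libraries gave p = 0.002165, the smallest that 6 against 6 allows. Adipocyte markers were present in every library, with 9 of 9 at a mean FPKM of at least 1 and a summed FPKM of 16278 to 20063 in control and 14386 to 19072 in knockdown libraries. Of the preadipocyte or fibroblast markers 7 of 8 passed the same level (summed FPKM 2470 to 2749 in control and 1953 to 2567 in knockdown). None of the 4 macrophage or blood markers found and none of the 3 endothelial markers did, and Emr1 was listed at 0. Both adipocyte and preadipocyte sums reached lower in the knockdown arm. Mitochondrially encoded rows made up a part of the summed FPKM that ran from 22.7% to 25.3% in control and from 19.4% to 32.8% in knockdown libraries. The part of these values in the results was not tested. In bulk samples fewer cells of a type and less RNA per cell cannot be told apart.

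COMM domain proteins assemble with each other and with the coiled-coil proteins CCDC22 and CCDC93 into the CCC complex. The CCC complex works on endosomes with retriever, built of VPS35L, VPS26C and VPS29, and the joint assembly is called Commander. With the cargo adaptor SNX17 and the actin-nucleating WASH complex it returns membrane proteins such as integrins from endosomes to the cell surface. COMMD1, the founding member, is also known for copper handling and for limiting NF-kappaB through cullin ubiquitin ligases. In adipocytes endosomal sorting also handles the glucose transporter GLUT4.

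The family is dispersed over the genome, and the members' 5′ sequences are described here. Whether motifs in them go with the members' variation among libraries was not tested. The RefSeq promoter table of GRCm38.p6, with 250 bases before to 50 bases after each start, held 8 promoters of 7 members, Commd1 having 2. Commd2, Commd5 and Commd10 had no entry and were not searched. The extended E-box GTCACGTG, searched on both strands, lay in the promoters of 3 members (Commd3, Commd8 and Commd9), and in 2.25% of all 32851 promoters. It contains the E-box CACGTG, which those 3 promoters therefore also hold and which 7.15% of all promoters hold. The ETS core CCGGAA lay in 2 members' promoters, Commd4 and Commd6, and in 14.9% of all. Shown are the 30 bases before the RefSeq start of the 3 members with the extended E-box and of Commd4, the member with the second-lowest knockdown value relative to control among rows of a single gene. Capitals mark the extended E-box in the first 3 and the ETS core in Commd4.
Commd3, chr2:18672405-18672434, plus strand: cagctgggcgcgcgccccgaGTCACGTGgt
Commd9, chr2:101886232-101886261, plus strand: gctccgcttgctccggctGTCACGTGACtc
Commd8, chr5:72168190-72168219, minus strand: aaGTCACGTGgacgaatcggagcgtaagcc
Commd4, chr9:57158300-57158329, minus strand: agtcagctgacctgagtcaagCCGGAAgaa
The extended E-box began 10 bases before the start in Commd3 and 12 bases before it in Commd9, where matches on both strands overlap. In Commd8 it began 28 bases before the start, with overlapping matches from base 15 and base 17 after it as well. The GENCODE M21 gene models reach further upstream than the RefSeq starts for Commd3, Commd9 and Commd4, and cover 30, 15 and 30 of these 30 bases. Of the other motifs searched on both strands, the GC box GGGCGG lay in 5 members' promoters (35.7% of all), CCAAT in 2 (37.4%) and TATAAA in 2 (13.6%). A match is a description of the letters and no binding was measured.

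All 8 members with a row of their own were measured well above the filter (a mean FPKM of at least 1, passed by 14706 rows). In control libraries the order of levels was Commd3, Commd9, Commd6, Commd4, Commd8, Commd7, Commd2 and Commd10. Commd3 stood apart at a mean of 147 FPKM ± 15.8 (SD, n = 6), above 93.5% of the tested rows and 3.90 times the mean of Commd9. The other 7 lay between 14.7 FPKM for Commd10 and 37.8 FPKM for Commd9. For each of the 7 pairs of neighbours in this order the first gene was higher within 6 of 6 control libraries. An error that a row carries in every library would leave this count unchanged, and Commd8 was only 1.07 times Commd7. The ranges across libraries still overlapped for Commd9 and Commd6, Commd6 and Commd4, Commd8 and Commd7, and Commd7 and Commd2. The ranges stood apart for Commd3 over Commd9, for Commd4 over Commd8 (1.29 times) and for Commd2 over Commd10 (1.27 times). In knockdown libraries the order of means was the same except that Commd8 stood above Commd4 and Commd2 above Commd7. The 8 means summed to 327 FPKM in control and 282 FPKM in knockdown libraries.

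**Figure D1:**
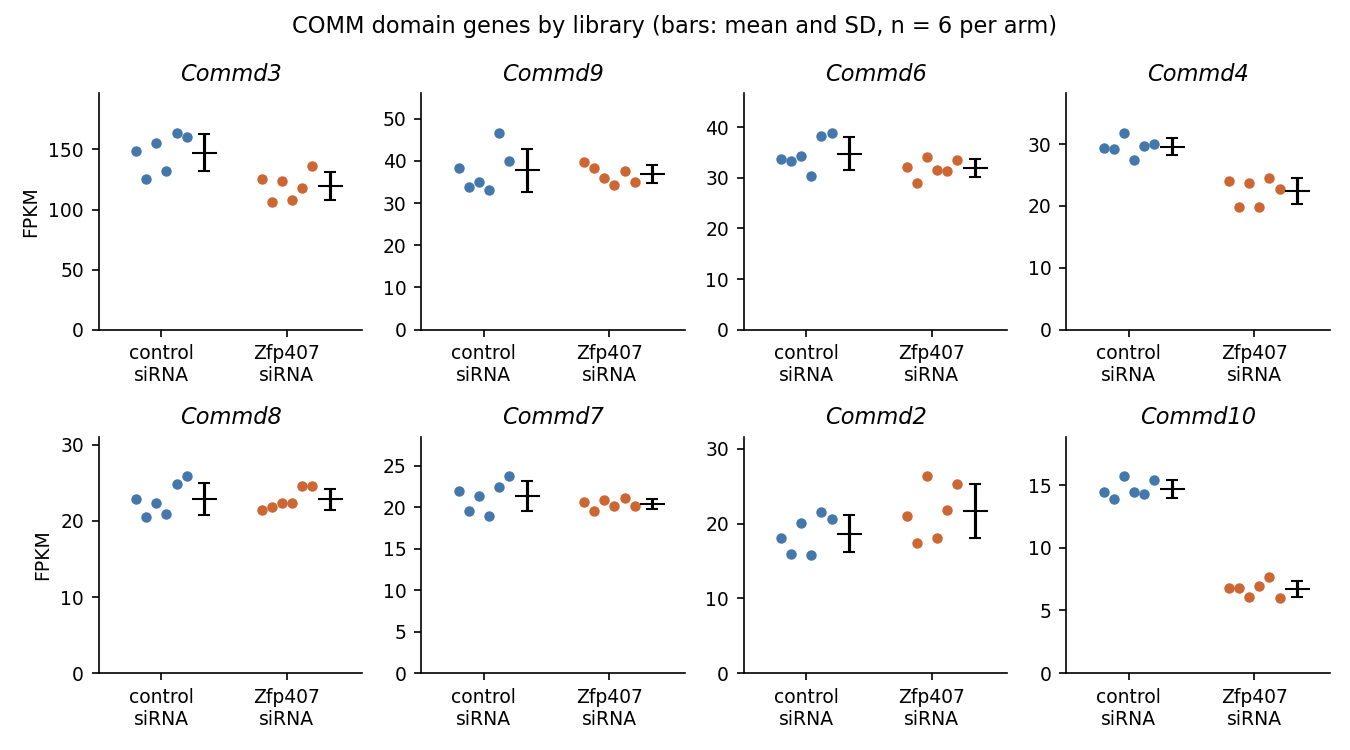
FPKM of the 8 COMM domain genes with a row of their own, in each control siRNA library (blue) and each Zfp407 siRNA library (orange), with every axis starting at 0. Bars give the mean and SD (n = 6 per arm). The arms do not overlap for Commd10 and Commd4 and overlap for the other 6. Over all tested rows 13.9% are lower and 5.51% higher with arms that do not overlap.

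Commd10 encodes a subunit of the ring of COMM domain proteins in the CCC complex. Its row (XLOC_015400) spans chromosome 18, 46958862 to 47087997 on GRCm38, while its GENCODE M21 gene model is 275.5 kb long, the longest of the members. Its FPKM was 13.9 at the lowest, 14.5 at the median and 15.7 at the highest of the 6 control libraries. In knockdown libraries it was 5.98 at the lowest, 6.80 at the median and 7.70 at the highest. Every knockdown library thus lay below every control library. The means were 14.7 ± 0.703 and 6.71 ± 0.630 FPKM (SD, n = 6 each), 54.3% lower, a difference of -1.03 (SE 0.05) on log2(FPKM + 1). The authors' deposited table gives Commd10 a log2 fold change of -1.13 and marks it significant. No other member with a row of its own is so marked. Of all rows with a usable test 1.59% (302 rows) are marked. The ratio of Commd10 to Commd8, a member whose mean hardly moved, was 0.576 to 0.704 in control and 0.243 to 0.316 in knockdown libraries. With Commd8 nearly level, this ratio restates the separation of Commd10 and is no separate support for it.

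Commd4, another subunit of the ring (XLOC_035557, chromosome 9, 57155037 to 57158299), was the other member whose arms stood apart. Its FPKM was 27.5 at the lowest, 29.5 at the median and 31.8 at the highest control library. In knockdown libraries it was 19.8, 23.2 and 24.4 at the same points, with libraries 2 and 4 lowest. The means were 29.6 ± 1.41 and 22.4 ± 2.09 FPKM (SD, n = 6 each), 24.1% lower, a difference of -0.39 (SE 0.06) on the log2 scale. The authors' table gives -0.40 for Commd4 and does not mark it. Neil1, a neighbouring gene on chromosome 9 (57142801 to 57151937), had means of 8.06 FPKM in control and 6.51 FPKM in knockdown libraries. It was 19.2% lower, a difference of -0.27 (SE 0.06). Its arms overlapped, with 5 of 6 knockdown libraries below every control library.

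Commd3, the most abundant member (XLOC_017258, chromosome 2, 18672384 to 18676338), came next. Its FPKM was 125 at the lowest, 152 at the median and 164 at the highest control library, and 106, 121 and 137 in knockdown libraries. Of the 6 knockdown libraries 4 lay below every control library, while knockdown libraries 1 and 6 reached above the lowest control libraries. The mean was 18.9% lower, with 147 ± 15.8 FPKM in control and 120 ± 11.4 FPKM in knockdown libraries (SD, n = 6 each), a difference of -0.30 (SE 0.08). Bmi1, a Polycomb gene that begins 786 bases after the end of Commd3 on GRCm38, had a mean of 93.5 FPKM in control and 98.3 FPKM in knockdown libraries, a difference of 0.07 (SE 0.10) with overlapping arms.

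For 4 members the difference was within 0.15 of 0. Commd6, whose longest coding model in GENCODE M21 has 87 residues against 183 to 224 for Commd2 to Commd5 and Commd7 to Commd10, had means of 34.8 ± 3.22 and 32.0 ± 1.82 FPKM (SD, n = 6 each) and a difference of -0.12. Commd7 had means of 21.3 ± 1.81 and 20.4 ± 0.592 FPKM and a difference of -0.06. Commd9 had means of 37.8 ± 5.08 and 36.8 ± 2.13 FPKM and a difference of -0.03, with control library 5 highest at 46.7 FPKM. Commd8 had means of 22.9 ± 2.10 and 22.9 ± 1.38 FPKM and a difference of 0.00. In all 4 the arms overlapped, and the knockdown libraries of Commd7, Commd8 and Commd9 all lay within the control range. Prr5l, a gene near Commd9 on chromosome 2, had a difference of -0.19 (SE 0.13) with overlapping arms.

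Commd2 (XLOC_021670) was the member with the highest knockdown value relative to control. Its FPKM was 15.8 at the lowest, 19.0 at the median and 21.5 at the highest control library, and 17.4, 21.4 and 26.3 in knockdown libraries. Of the knockdown libraries 3 lay above every control library and the others within the control range. The mean was 16.1% higher (18.7 ± 2.44 against 21.7 ± 3.62 FPKM, SD, n = 6 each), a difference of 0.20 (SE 0.11).

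Over the 8 members, the difference of mean log2(FPKM + 1) was below 0 for 6 and above 0 for 2, Commd2 and, at 0.00, Commd8. The arms did not overlap for 2 members, both lower, and for none in the higher direction. Over all tested rows 13.9% were lower and 5.51% higher with arms that did not overlap. The members' median difference was -0.09 on the log2 scale, beside -0.05 for all tested rows. The members were chosen with this comparison in view, and nothing is read from these shares.

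**Figure D2:**
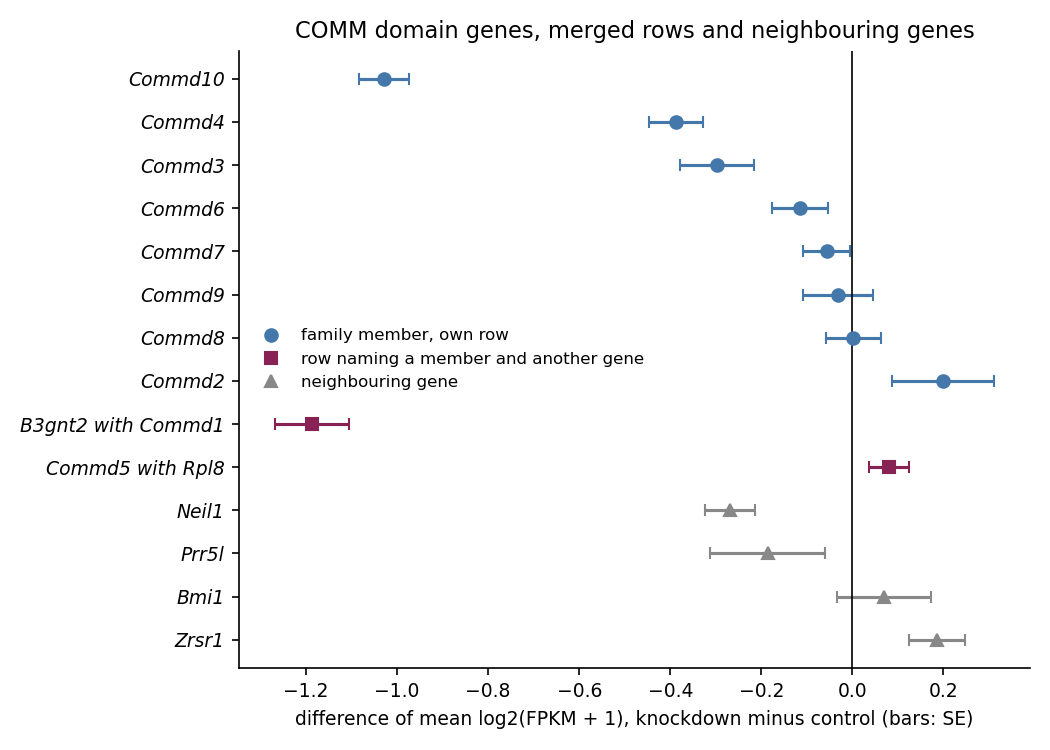
Difference of mean log2(FPKM + 1), knockdown minus control, with its SE, for the 8 COMM domain genes (circles), the 2 rows that name a member and another gene (squares) and 4 neighbouring genes (triangles). Commd10 at -1.03 and the row of B3gnt2 with Commd1 at -1.19 lie far to the left, and the other members lie between -0.39 and 0.20.

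Commd1 could be read only through a row that names B3gnt2 with Commd1 (XLOC_005135, chromosome 11, 22758594 to 22982382). B3gnt2 encodes a glycosyltransferase that extends N-acetyllactosamine chains. The row's FPKM was 101 at the lowest, 123 at the median and 141 at the highest control library, and 45.1, 54.8 and 57.0 in knockdown libraries. The arms stood far apart. Its mean was 123 ± 14.3 FPKM in control and 53.4 ± 4.40 FPKM in knockdown libraries (SD, n = 6 each), 56.6% lower, a difference of -1.19 (SE 0.08). The authors' table gives the row a log2 fold change of -1.20 and marks it significant. The GENCODE M21 models of B3gnt2 and Commd1 lie side by side on the minus strand without overlap, and the row does not tell which of them was lower. Zrsr1, a splicing factor gene, lies inside Commd1 on the opposite strand. It overlaps 2 exon entries counted over all Commd1 transcripts, which may repeat the same exon. Each of the 6 knockdown libraries exceeded all control libraries in the Zrsr1 row, with means of 7.37 and 8.56 FPKM and a difference of 0.19 (SE 0.06). The sources used here do not say whether the libraries keep strand.

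Commd5 stood in a row with Rpl8, a ribosomal protein gene (XLOC_011352). Its means were 716 ± 30.01 FPKM in control and 757 ± 31.2 FPKM in knockdown libraries (SD, n = 6 each), a difference of 0.08 (SE 0.04) with overlapping arms. At this level, far above that of Commd3, the row cannot show what Commd5 did. The 2 merged rows are counted in no total of members.

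The members also varied among libraries of the same arm. Each library's deviation from its own arm's mean was taken on log2(FPKM + 1), which removes the difference between the arms. Any difference between siRNA #1 and siRNA #2 within the knockdown arm stays in these deviations and in the correlations drawn from them. In control libraries 2 and 4 all 8 members lay below the arm mean, by 0.12 and 0.14 on average. In control library 6 all 8 lay above it, and in control library 5 all but Commd10 did, both by 0.12 on average. In the knockdown arm library 2 had 6 and library 4 had 7 of the 8 members below the mean, with averages of -0.10 and -0.08. Over all rows whose mean FPKM reached 10, the median deviation in the same libraries was -0.06 in control library 2, -0.02 in control library 4, -0.03 in knockdown library 2 and 0.05 in knockdown library 4. In knockdown library 4 the members' average and the median of all these rows thus lay on opposite sides of 0.

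**Figure D3:**
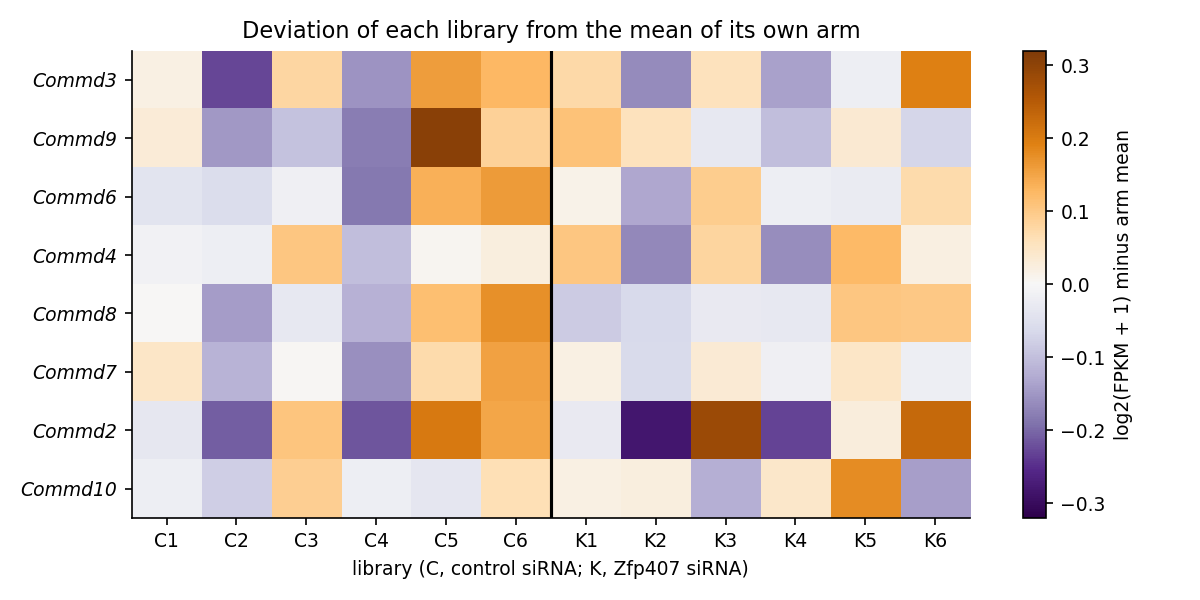
Deviation of each library from the mean of its own arm, in log2(FPKM + 1), for the 8 COMM domain genes ordered by their control level (6 control libraries left of the line, 6 knockdown libraries right). Columns C2 and C4 are low and C6 is high throughout, while the Commd10 row follows the other rows little.

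Across the 12 libraries these deviations had a positive Pearson r in 25 of the 28 pairs of members, with a median of 0.56 and a range of -0.23 to 0.90. The highest was 0.90, for Commd3 with Commd2. Commd10 was the exception. Its 7 pairs had a median r of 0.15 and ran from -0.23 to 0.29, while the 21 pairs among the other 7 members ran from 0.23 to 0.90 with a median of 0.66. The only pairs below 0 were those of Commd10 with Commd2, Commd6 and Commd3. These correlations describe the libraries only: all members of a pair share a library and its scaling. No such values are given for pairs of other rows, so how unusual they are cannot be told.

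The rows most like the family were sought among 7598 other rows of a single protein-coding gene with a mean FPKM of at least 5, by the Pearson r of their within-arm deviations with the members' mean deviation over the 12 libraries. The median over these rows was 0.09. The 5 highest were Unc50 at 0.94, Tspan6 at 0.94, Polr2d at 0.94, Anxa1 at 0.94 and Btf3 at 0.94. Between the arms these rows differed by 0.09, 0.00, 0.21, 0.28 and 0.12 on the log2 scale in the same order, knockdown minus control.

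The genes of the pathway were read from lists, of which 61 genes were tested in the fit of all 14706 rows by limma with Benjamini-Hochberg adjustment. Over all rows 24.8% were called lower and 11.6% higher at an adjusted p of 0.05, that is 3648 lower and 1712 higher. With libraries centred on their medians the split was 3146 lower and 2307 higher. Of the 61 list genes 13 were called, 11 lower and 2 higher. No list gene was called against a minimum fold of 1.2, where 856 of all rows were.

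Of 5 tested genes for the partners of COMM domain proteins in the CCC complex and retriever, limma called 3 lower and none higher. Their median difference was -0.18. Over all rows 24.8% were called lower and 11.6% higher. Vps35l, the large retriever subunit, had 39.1 FPKM at the lowest, 42.5 at the median and 43.9 at the highest control library, and 29.4, 34.5 and 41.5 in knockdown libraries. It was 16.8% lower (-0.27, SE 0.07, limma adjusted p = 0.0108), with 5 of 6 knockdown libraries below every control library. Vps26c, the second subunit, fell from 40.2 ± 2.46 to 34.6 ± 1.70 FPKM (SD, n = 6 each; -0.21, SE 0.05, limma adjusted p = 0.00397). Ccdc93, the scaffold that binds COMM domain proteins, fell from 11.0 ± 0.576 to 9.63 ± 0.528 FPKM (-0.18, SE 0.04, limma adjusted p = 0.00624). For Vps26c and Ccdc93 the arms did not overlap, where 13.9% of all tested rows were lower with arms that did not overlap. Vps29, which retriever shares with retromer, had a difference of -0.07 (limma adjusted p = 0.64), and Dennd10, a further CCC-associated subunit, had -0.10 (limma adjusted p = 0.168). Ccdc22 stood only in a row with another gene and was not used. The 3 calls kept their direction and their side of the threshold in all 18 alternative fits other than the minimum-fold test, with a highest adjusted p of 0.0342 for Vps35l.

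**Figure D4:**
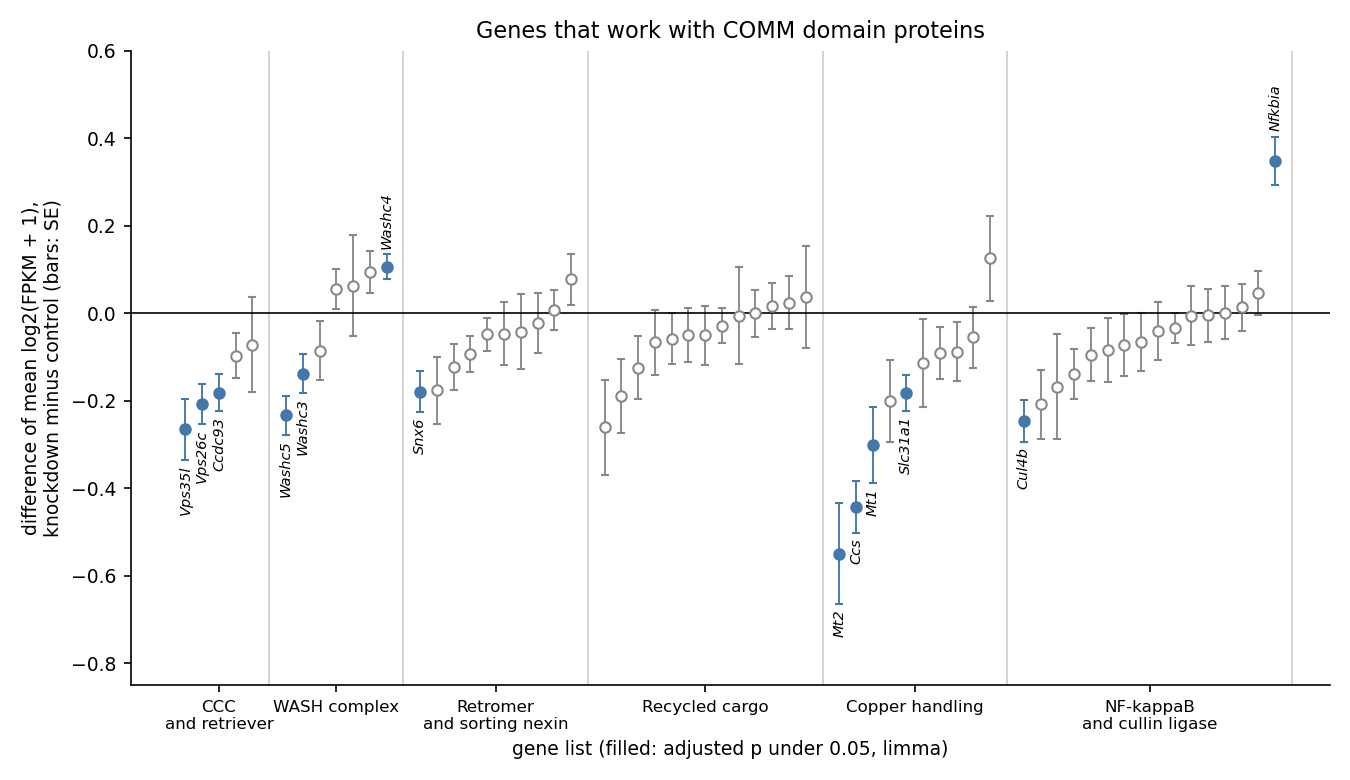
Difference of mean log2(FPKM + 1), knockdown minus control, with its SE, for the 61 tested genes of 6 lists. Filled circles are genes called by limma at an adjusted p of 0.05. The called genes run from Mt2 at -0.55 to Nfkbia at 0.35, and no recycled cargo gene is called.

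The WASH complex, which builds branched actin on endosomes, was mixed. Of 7 tested genes limma called 2 lower and 1 higher, with a median of 0.06. Washc5, encoding strumpellin, fell from 31.2 ± 0.519 to 26.5 ± 1.89 FPKM (SD, n = 6 each; -0.23, SE 0.04, limma adjusted p = 0.00158), with no overlap of the arms. Washc3 fell by 0.14 (limma adjusted p = 0.0289). That call was lost, at adjusted p of up to 0.0645, under both other scalings and without any 1 of control libraries 1, 3, 5 or 6 or knockdown libraries 1, 2 or 3. Washc4 rose by 0.11 (limma adjusted p = 0.0106), in a row whose own test the authors' table marks as failed. Under both other scalings the count was 1 lower (Washc5) and 2 higher (Washc4 and Capza1). Washc2 had no row matched by its symbols.

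Retromer and its sorting nexins showed 1 call among 10 tested genes. Snx6, a membrane-bending nexin, fell by 0.18 (SE 0.05, limma adjusted p = 0.011). Snx17, the cargo adaptor of Commander, had means of 124 ± 8.999 and 122 ± 11.98 FPKM (SD, n = 6 each), a difference of -0.02, and Vps35, the core retromer subunit, had a difference of 0.01. Without knockdown library 4 the count was 4, with Vps26b, Snx1 and Snx27 added. Without knockdown library 5 it was 2, and under quantile normalization it was 2, with Snx2 higher.

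Among receptors and integrins that endosomes return to the surface, 0 of 13 tested genes were called by limma, and 2 had an unadjusted p under 0.05. Lrp1, a large lipoprotein receptor, had means of 42.2 ± 6.88 and 34.9 ± 4.50 FPKM (SD, n = 6 each) and a difference of -0.26 (limma adjusted p = 0.0807). Lrp1 was called without control library 6, and was named after its values were seen. The integrin gene Itgb1 had a difference of -0.03.

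Copper handling, the first function tied to the family, had 4 of 10 tested genes called lower by limma and none called higher. The median was -0.15, and 24.8% of all rows were called lower. Ccs, the copper chaperone for superoxide dismutase, had 32.8 FPKM at the lowest, 36.5 at the median and 38.9 at the highest control library, and 23.6, 26.2 and 29.3 in knockdown libraries. The arms did not overlap, and the mean was 27.2% lower (-0.44, SE 0.06, limma adjusted p = 0.000119). The metallothionein genes, whose proteins bind copper and zinc, were Mt2 at -0.55 (SE 0.12, limma adjusted p = 0.00279) and Mt1 at -0.30 (SE 0.09, limma adjusted p = 0.0161). The arms overlapped for both: Mt2 ran from 372 to 490 FPKM in control and from 236 to 388 FPKM in knockdown libraries. Slc31a1, the high-affinity copper importer, fell by 0.18 (SE 0.04, limma adjusted p = 0.00443). Atp7a, the copper-exporting pump, had a difference of -0.12 (limma adjusted p = 0.403), in a row that the authors' table also marks as failed.

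Of 16 tested genes of NF-kappaB and the cullin ligases limma called 1 lower and 1 higher, with a median of -0.05. Nfkbia, encoding the inhibitor that holds NF-kappaB in the cytoplasm, had 18.3 FPKM at the lowest, 19.4 at the median and 21.6 at the highest control library, and 22.9, 25.4 and 28.1 in knockdown libraries. It was higher in every knockdown library than in any control library (0.35, SE 0.05, limma adjusted p = 0.000421). Nfkbib, which encodes a related inhibitor, went the other way and was not called (-0.14, SE 0.06, limma adjusted p = 0.0732). Its means were 11.4 ± 0.244 and 10.3 ± 1.03 FPKM (SD, n = 6 each), and every knockdown library lay below every control library. Nfkbib was named after its values were seen. Cul4b, a cullin scaffold, fell by 0.25 (SE 0.05, limma adjusted p = 0.0017). Cul2, the cullin tied to COMMD1, had a difference of -0.17 (SE 0.12, limma adjusted p = 0.302), and Rela had 0.00. Cul4a, a second cullin scaffold named after its values were seen, had -0.21 (limma adjusted p = 0.0534). It was called lower, at limma adjusted p of 0.0289 to 0.0433, without control library 2, knockdown library 4 or knockdown library 5, and at 0.0493 with the filter at 5 FPKM, which made the lower calls 2.

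The authors' values carry a term that differs between the arms. In low rows whose values are whole multiples of 1 read, 207 of 805 (25.7%) had a different worth of a read in the 2 arms, by over 0.01 in log2 units, with a 90th percentile of 0.201. Between odd- and even-numbered libraries of 1 arm it differed in 9 of 167 control rows and 6 of 192 knockdown rows. Rows differing by 0.5 or more were left out of this comparison, and some compared rows lie above the 90th percentile. Commd10, Commd4 and Commd3 exceed 0.201 in size, as do 8 of the 13 called list genes. Exceeding it does not show that a gene is free of this term, and its part in these differences was not tested. Ccdc93, Snx6, Slc31a1, Washc3 and Washc4 do not exceed 0.201. Neither do Commd2 (0.1996), Commd6, Commd7, Commd8 and Commd9, nor Zrsr1 (0.186). Differences of that size cannot be told apart from this term.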

How the data were processed

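The table deposited by the authors gives FPKM for each gene and library, with Cufflinks 2.0.2, TopHat2 2.0.5, SAMtools 0.1.18.0 and Bowtie2 2.0.0.7 named in the submitters' processing notes. It also holds, per the file headers, an FPKM per arm from the authors with their log2 fold change, p-value and q-value. The sources used here give no genome build. The locus lines of all 8 members overlap their GENCODE M21 genes on GRCm38, and positions are given on that build, counted from 1. The tests ran in R 4.3.3 with limma 3.58.1 on log2(FPKM + 1) (intensity trend, two-sided, Benjamini-Hochberg, threshold 0.05), 6 control against 6 knockdown libraries, over 14706 rows whose mean FPKM reached 1. The pseudocount understates changes of low genes. Fold changes are on the log2(FPKM + 1) scale.

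The members and lists were chosen with earlier results of these data known. Named were all members, Zfp407, the CCC and retriever genes, up to 6 called genes of each list by size, and the 5 rows most like the members; some uncalled genes were added for their role, after their values were seen. The alternatives were a pseudocount of 0.1, no filter, a filter at 5 FPKM, median centring, quantile normalization, no intensity trend, a minimum fold of 1.2 and leaving out each library. An item of the recycled cargo list is not reported here.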

Additional observations from a re-analysis of the deposited data

How the results depend on the processing

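Against a minimum fold of 1.2 the calls dropped from 5360 to 856 over all rows, and to 0 in each of the lists of CCC and retriever, WASH, retromer and sorting nexin, copper handling, and NF-kappaB and cullin ligase genes. At an unadjusted p under 0.05 that test had 2 copper handling genes and 0 genes of the other lists. Quantile normalization gave 2 calls among retromer and sorting nexin genes. Leaving out 1 library at a time gave 4782 to 5517 calls over all rows, 1 to 4 among retromer and sorting nexin genes, and 0 to 1 among recycled cargo genes. With a pseudocount of 0.1 the difference of Commd10 was -1.12. Over the 17 alternatives Commd10 ran from -1.12 to -0.99, Commd4 from -0.41 to -0.34, Commd3 from -0.34 to -0.26 and Commd2 from 0.14 to 0.26. The small differences of Commd8 (-0.03 to 0.05) and Commd9 (-0.07 to 0.03) took either sign. Median centring moved the share of lower calls from 68.1% to 57.7%. Zfp407 has too low a mean for the filter at 5 FPKM and was not tested there.

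No paired analysis was possible because the knockdown columns carry a number but not the sample's own replicate number. Columns of the 2 arms with the same number had within-arm deviations correlated at -0.05 to 0.15. Depth in reads is not known, so no counting error can be attached to low values such as those of Zfp407.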

Other observations

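The difference between the arms was also read by the length of the gene model, over tested rows of a single protein-coding gene. The 2197 genes under 10 kb had a median difference of -0.05 with 26.5% called lower by limma, and the 3213 genes of 10 to 30 kb had -0.05 with 26.3%. The 2873 genes of 30 to 100 kb had -0.08 with 29.6%, and the 1262 genes of at least 100 kb had -0.14 with 38.6%. The gene model of Commd10 spans 275.5 kb, and those of Commd4 and Commd3 span 3.3 and 3.8 kb. The part of gene length in the members' values was not tested.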
